A study of Mus musculus with 2 samples.

Results

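Radial glia marker genes were examined for p300 peaks in the dorsal cerebral wall of the embryonic mouse. The 6 genes were Fabp7, Slc1a3, Vim, Nes, Prom1 and Ptprz1, given as a list, out of 22367 annotated protein-coding genes. A p300 peak was assigned to a gene when its midpoint lay inside the gene body or within 500 kb of its transcription start site. This gave 26 of the 6629 deposited peaks, each assigned to 1 of the 6 genes. Swiss Webster embryos at E14.5 gave the tissue, the dorsal wall dissected away from the midline (hippocampus, choroid plexus and hem) and fixed in 1% formaldehyde. There was 1 immunoprecipitated library, made with the anti-p300 antibody C-20, and 1 input library from the same sample, with no antibody and no replicate. The peak list carries no score, read count or enrichment, so the depth behind a single peak is unknown. Peaks are not expression, and the list cannot show whether the genes were transcribed, so the label of the gene set could not be checked against these data. The wall holds radial glia, intermediate progenitors and neurons together, and which of them carried a peak cannot be told apart.

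Radial glia are the neural stem cells of the ventricular zone. Their bodies line the ventricle, a long fibre reaches the outer surface, and they divide to give intermediate progenitors and neurons that climb along the fibre. The 6 genes are used to recognise them: Nes and Vim encode intermediate filament proteins of the fibre, Fabp7 a fatty acid binding protein, Slc1a3 the glutamate transporter GLAST, Prom1 the apical membrane glycoprotein CD133, and Ptprz1 a receptor tyrosine phosphatase that also acts as a proteoglycan. The co-activator p300 is a histone acetyltransferase found at active enhancers, and its peaks away from promoters are used as candidate enhancers.

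The number of peaks ran from 0 to 8 between the 6 genes. Nes had 8 peaks, Ptprz1 had 7, Prom1 had 6, Vim had 3, Fabp7 had 2 and Slc1a3 had 0. A window of this size would hold 2.37 to 2.59 peaks if all peaks were spread evenly over the assembled genome. Against that expectation, Nes had a fold of 3.09 (exact Poisson 95% interval 1.33 to 6.08, counting error only), Ptprz1 of 2.70 (1.09 to 5.57) and Prom1 of 2.32 (0.850 to 5.04). For Vim the fold was 1.16 (0.239 to 3.38) and for Fabp7 it was 0.845 (0.102 to 3.05). The intervals of neighbouring genes in this order all overlapped, and so did those of Nes and Fabp7.

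Each protein-coding gene was tested in the same way by an exact, one-sided binomial test, with Benjamini-Hochberg adjustment over all 22367 genes, which compares the peaks with even placement and not samples with each other. None of the 6 genes passed an adjusted p of 0.05, against 4.09% of all protein-coding genes. The adjusted p was 0.0869 for Nes, 0.197 for Ptprz1, 0.383 for Prom1 and 1 for each of the other genes (one-sided exact binomial test). Without adjustment, 3 of the 6 (Nes, Ptprz1 and Prom1) were under 0.05, as were 12.6% of all protein-coding genes. For Prom1 this p was 0.0483, with 0.0349 when peaks under 5 kb apart were joined and 0.139 with the density of its own chromosome (one-sided exact binomial test). With windows of 250 kb it was 0.0426 for Nes, 0.142 for Ptprz1 and 0.726 for Prom1 (same binomial test). The median protein-coding gene had 1 peak and the median of the 6 genes was 4.5. At least 8 peaks were found at 6.07% of protein-coding genes, and no peak at 30.0%. The count and the call of Nes moved with the setting. When peaks under 5 kb apart were joined, Nes had 3, a fold of 1.26 and an adjusted p of 1 (exact binomial test). There were 0 peaks within 100 kb of its start site, where 0.518 would be expected. In the stretch between its neighbouring protein-coding genes there were 0 as well, with 0.129 expected. Its adjusted p was 0.0196 when peaks narrower than the median were left out (7 peaks, fold 5.39), and 0.0203 when the expectation was drawn from sequence outside exons and start sites (fold 4.25, one-sided exact binomial test). In these last settings 2.05 and 5.12% of all protein-coding genes passed.

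**Figure D1:**
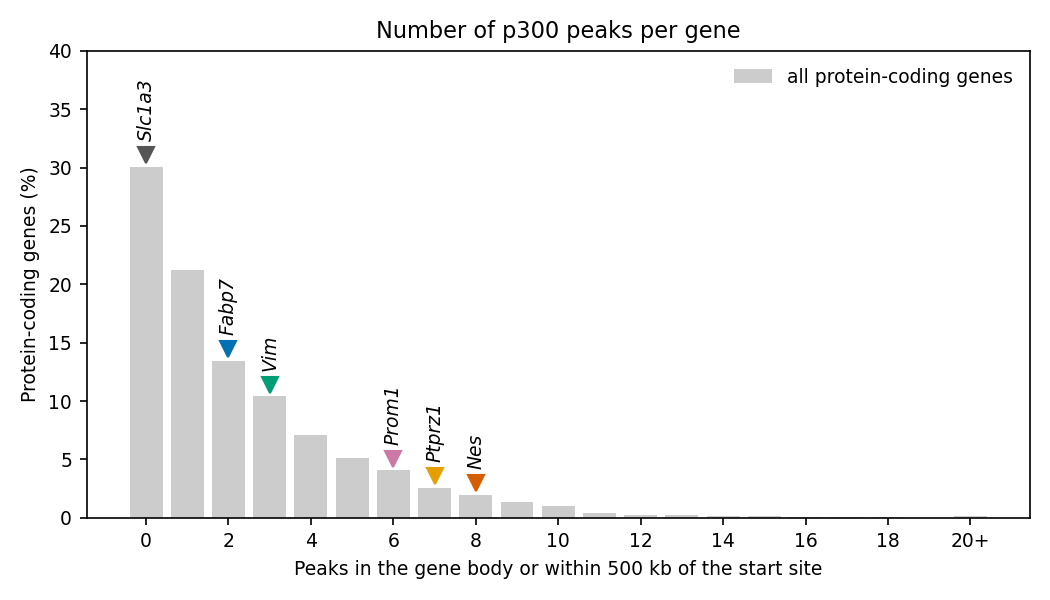
Number of p300 peaks per gene (x axis) against the share of all 22367 protein-coding genes with that number (y axis, %, bars, the last for 20 or more). Arrowheads mark the 6 radial glia marker genes: Slc1a3 sits at 0, where 30.0% of genes lie, and Nes at 8, a number reached or passed by 6.07% of genes.

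The distances of the peaks from the start sites were close to those at protein-coding genes in general. The window of 500 kb bounds these distances for every gene, and peaks placed evenly in it would also lie mostly beyond 150 kb. The likeness is therefore largely set by the window. Of the 26 peaks, 5 (19.2%) lay within 100 kb of the start site and 21 (80.8%) beyond 150 kb, with a median distance of 259.2 kb. Over all protein-coding genes, with a peak counted once for each gene, 16.3% lay within 100 kb and 74.0% beyond 150 kb, with a median of 266.9 kb. No peak lay within 25 kb of any of the 6 start sites, while 6.39% of protein-coding genes had one that close. Within 50 kb there were 2 peaks, 1 at Vim and 1 at Ptprz1. The farthest peak counted lay 478.5 kb upstream of Prom1, and the nearest one left out was 574.7 kb upstream of the same gene. Only 1 peak fell inside the body of one of the 6 genes, in an intron of Ptprz1. In all, 14 peaks were intronic, 12 were intergenic and 0 were exonic, the last as the authors' filter requires. For 23 of the 26 peaks a protein-coding start site other than that of the marker gene was nearer, and the remaining 3 belonged to Ptprz1. Over all protein-coding genes, the 6629 peaks made 53140 pairs of gene and peak within 500 kb. A peak has 1 nearest start site, so in most of those pairs another gene was nearer too.

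**Figure D2:**
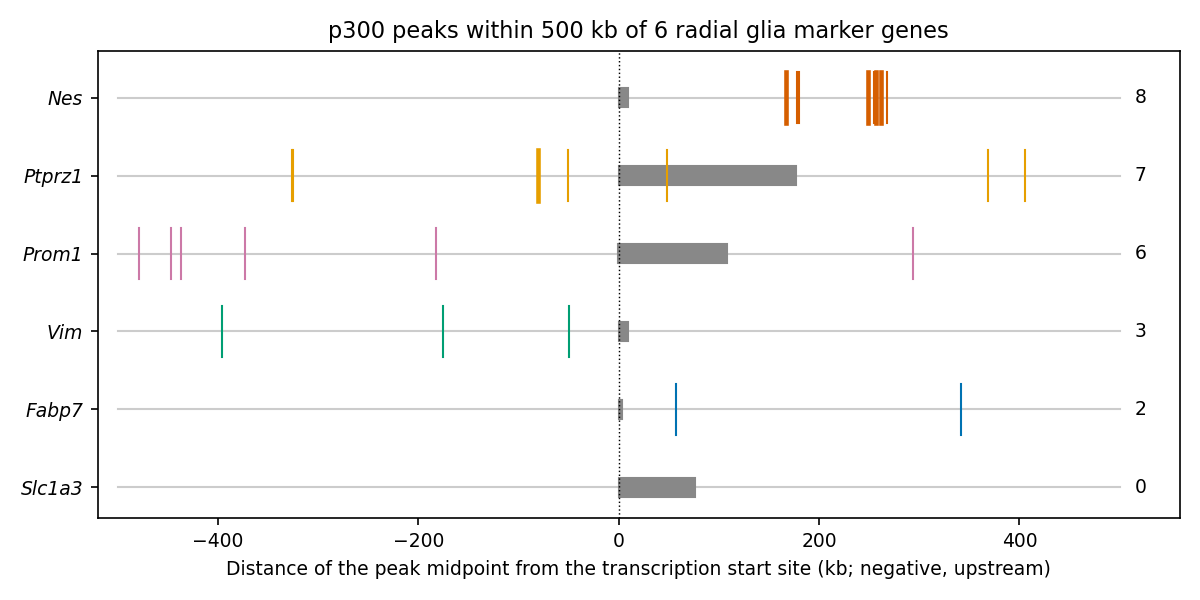
Position of each p300 peak midpoint (vertical ticks, thicker for peaks of 1500 bp or more) relative to the start site of each gene (x axis, kb, negative upstream in the direction of transcription). Grey boxes are the gene bodies and the number at the right is the number of peaks. The 8 peaks at Nes all lie downstream, the 3 at Vim all upstream, and Slc1a3 has 0.

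The deposited list had been filtered by position, with peaks at exons or within 2.5 kb of a start site taken out. Fabp7, Vim and Nes are short genes of 3570, 8900 and 9374 bp. By the annotation used here, 19.6% of Fabp7, 7.29% of Vim and 18.3% of Nes lay outside exons and more than 2.5 kb from a start site, in runs of at most 699, 588 and 1172 bp. The narrowest peak of the whole list is 367 bp wide, so these gene bodies left little room for a peak, and p300 binding in their first introns or promoters cannot be read from the list. For Slc1a3, Prom1 and Ptprz1 the share was 77.0, 87.9 and 91.6%.

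To show what the peaks are made of, the middle 300 bp of selected peaks are given from the mm9 reference, plus strand, 5′ to 3′. They are the peak nearest the start site of each gene that had one, the widest peak at Nes and the remaining peaks around Ptprz1. Reference sequence, not that of the Swiss Webster embryos, is shown. Capitals mark matches, on either strand, to short motifs of factor families active in the ventricular zone or in new neurons: the E-boxes CAGCTG and CATCTG of bHLH factors, the homeodomain core TAATTA, the Nfi palindrome (TTGGC, any 5 bases, GCCAA) and single site TTGGCA, the Sox motifs ACAATG and ACAAAG, the POU octamer ATTTGCAT, the Rbpj core TGGGAA, the Tead core GGAATG, the Stat motif TTCNNNGAA and the Rfx motif GTTGCC. The palindrome can contain the single Nfi site. A match is a string of letters and not a measured binding site.

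Nes encodes nestin, the intermediate filament protein most used to mark neural stem cells. The gene (ENSMUSG00000004891) occupies 87775000 to 87784373 of chromosome 3 on the plus strand. All 8 of its peaks lay downstream, in 2 groups, and none lay upstream within 500 kb. The first group held 3 peaks between 87941733 and 87955125, a span of 13.4 kb, at and inside Mef2d, which encodes a MADS-box transcription factor of neurons and muscle. The nearest of them, peak 3944, covered 1558 bp of intergenic sequence 167.5 kb from the start site of Nes and 3.98 kb from that of Mef2d. Peaks 3945 and 3946 lay in an intron of Mef2d, 178.3 and 179.5 kb from Nes. The second group held 5 peaks between 88023081 and 88043673, a span of 20.6 kb of which 8181 bp were covered by peaks. Of these 5, peak 3947 lay in an intron of the lincRNA Gm3764 and the other 4 were intergenic, and for all 5 the nearest protein-coding start site was that of Rhbg, an ammonium transporter, at 15.5 to 34.7 kb. The widest, peak 3950, ran from 88035017 to 88037857, and its 2841 bp exceeded the width of 99.4% of all peaks. The middle of the nearest peak and that of the widest were, in this order:

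Peak 3944, chr3:87942362-87942661: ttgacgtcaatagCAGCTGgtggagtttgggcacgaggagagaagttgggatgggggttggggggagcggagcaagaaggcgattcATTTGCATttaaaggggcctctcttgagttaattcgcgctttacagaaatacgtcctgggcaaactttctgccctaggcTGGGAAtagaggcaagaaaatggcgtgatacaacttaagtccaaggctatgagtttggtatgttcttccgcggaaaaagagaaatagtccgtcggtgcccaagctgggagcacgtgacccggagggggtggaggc

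Peak 3950, chr3:88036287-88036586: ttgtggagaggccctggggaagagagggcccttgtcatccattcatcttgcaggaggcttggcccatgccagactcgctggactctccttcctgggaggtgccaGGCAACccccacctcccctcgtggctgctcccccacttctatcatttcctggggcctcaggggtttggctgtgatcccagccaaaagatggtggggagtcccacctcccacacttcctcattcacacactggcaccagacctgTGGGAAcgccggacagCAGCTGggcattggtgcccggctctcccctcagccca

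The first sequence holds a POU octamer at 87942448, a CAGCTG E-box and an Rbpj core. The second holds a CAGCTG E-box, an Rbpj core and an Rfx motif. The start sites of 36 other protein-coding genes lay within 500 kb of that of Nes, so its peaks were shared with many genes. Bcan, 29.3 kb downstream of Nes and encoding the proteoglycan brevican, had the same 8 peaks within its own 500 kb. Mef2d and Rhbg each had 9 within theirs (fold 3.47, p = 0.0354 after adjustment, exact binomial test). The peaks at Nes were also rich in GC, with a median of 53.2% and a range of 49.8 to 59.1%, while the median of all peaks was 45.2%, with quartiles of 40.6 and 50%.

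Vim encodes vimentin, the other filament protein of the radial fibre. The gene (ENSMUSG00000026728) occupies 13495554 to 13504453 of chromosome 2 on the plus strand. Its 3 peaks all lay upstream and each sat in an intron of another gene. Peak 3203, an 879 bp peak from 13445362 to 13446240, lay 49.8 kb from the start site of Vim in an intron of Trdmt1, a tRNA methyltransferase gene, whose own start site was 20.5 kb away. Peak 3202 lay 174.9 kb away in an intron of Cubn, an endocytic receptor gene, and peak 3201 lay 395.8 kb away in an intron of Rsu1. With 489 bp, peak 3201 was wider than 0.317% of all peaks. The middle of the nearest peak was:

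Peak 3203, chr2:13445651-13445950: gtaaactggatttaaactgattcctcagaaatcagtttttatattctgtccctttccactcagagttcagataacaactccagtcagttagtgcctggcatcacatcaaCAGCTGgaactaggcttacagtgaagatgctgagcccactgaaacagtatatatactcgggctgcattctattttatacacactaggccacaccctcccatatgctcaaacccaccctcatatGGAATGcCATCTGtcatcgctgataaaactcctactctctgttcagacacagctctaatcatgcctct

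It holds an E-box of each kind and a Tead core. Downstream of Vim no peak was found for 4268 kb. The stretch without a peak that contains the start site was therefore 4318 kb long, and 13.3% of protein-coding genes lay in a longer one. The distance to the nearest peak was nonetheless short, with 12.8% of protein-coding genes having a nearer one.

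Fabp7 encodes brain lipid binding protein, a textbook marker of radial glia. The gene (ENSMUSG00000019874) occupies 57504687 to 57508256 of chromosome 10 on the plus strand. Both of its peaks lay downstream. Peak 568 covered 807 bp from 57561451 to 57562257 in intergenic sequence, 57.1 kb from the start site of Fabp7 and 47.7 kb from that of Smpdl3a, a phosphodiesterase gene that lies between them. Peak 569, from 57845531 to 57846600, lay 341.3 kb away in an intron of Lims1, which encodes an adaptor protein of focal adhesions, and 11.1 kb from the Lims1 start site. Upstream, the next peak was 1290 kb from Fabp7. Of the window, 86.6 kb is unassembled sequence in mm9, in which no peak could be called. The middle of the nearest peak was:

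Peak 568, chr10:57561704-57562003: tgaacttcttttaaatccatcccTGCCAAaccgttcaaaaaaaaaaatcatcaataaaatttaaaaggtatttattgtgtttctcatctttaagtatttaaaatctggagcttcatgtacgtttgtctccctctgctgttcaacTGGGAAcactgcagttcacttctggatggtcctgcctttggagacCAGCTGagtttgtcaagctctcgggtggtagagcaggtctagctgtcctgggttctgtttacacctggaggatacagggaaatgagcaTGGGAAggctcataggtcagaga

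A CAGCTG E-box, a single Nfi site and 2 Rbpj cores were found in it, and peak 569 held none of the motifs in its middle 300 bp.

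Slc1a3 encodes GLAST, which takes up glutamate in radial glia and astrocytes. The gene (ENSMUSG00000005360) occupies 8584124 to 8660764 of chromosome 15 on the minus strand and had 0 peaks, where 2.58 would be expected. The exact Poisson interval of its fold, made as for the other genes, ran from 0 to 1.43 and overlapped that of Nes. A density at the genome average was within that interval. The nearest peak, number 2107, lay 1512 kb downstream of the start site, and 44.8 kb from the start site of Lifr, a cytokine receptor gene. On the upstream side the next peak was 1925 kb away. A nearer peak was found at 91.1% of protein-coding genes, which set Slc1a3 apart from the other 5 genes, whose nearest peaks lay at 47.8 to 182.8 kb. The 5 other protein-coding genes with a start site in the window (Nipbl, Ranbp3l, 1110020G09Rik, Skp2 and Lmbrd2) had 0 peaks within their own 500 kb as well. This follows from the 1512 and 1925 kb to the peaks on either side and is not a separate observation. Of the window, 5 kb was unassembled and 90.5% of the assembled bases lay outside exons and start sites. Because only called peaks are listed, weaker p300 signal at Slc1a3 cannot be seen.

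**Figure D3:**
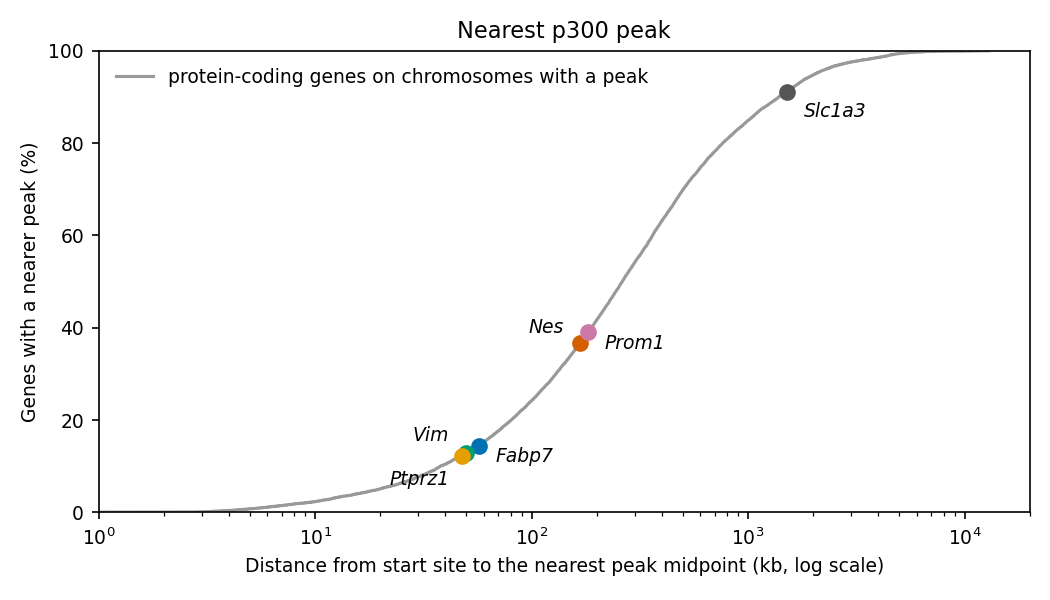
Distance from the start site to the nearest p300 peak midpoint (x axis, kb, log scale) against the share of protein-coding genes with a nearer peak (y axis, %). The line is all protein-coding genes on chromosomes with a peak and the points are the 6 radial glia marker genes: Ptprz1, Vim and Fabp7 lie at 47.8 to 57.1 kb, Nes and Prom1 at 167.5 and 182.8 kb, and Slc1a3 at 1512 kb.

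Prom1 encodes prominin, a glycoprotein of membrane protrusions on the apical surface of neural progenitors. The gene (ENSMUSG00000029086) occupies 44384864 to 44493271 of chromosome 5 on the minus strand. Of its 6 peaks, 5 lay upstream and 1 downstream. The nearest, peak 4714, covered 710 bp of intergenic sequence from 44675408 to 44676117, 182.8 kb upstream of Prom1 and 57.9 kb from the start site of Tapt1, which lies between them. The 4 upstream peaks beyond it, numbers 4715 to 4718, lay 372.5 to 478.5 kb away in introns of Ldb2, which encodes a cofactor of LIM homeodomain factors, and spanned 107.2 kb. The start site of Ldb2 itself lay outside the window. The downstream peak, number 4713, lay 293.6 kb away in an intron of Fbxl5 and 10.8 kb from the start site of Bst1. The body of Prom1 held 0 peaks, and 95239 bp of it lay outside exons and start sites. In the body and within 100 kb of the start site together, 0 peaks were found and 0.539 would be expected. The middle of the nearest peak was:

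Peak 4714, chr5:44675613-44675912: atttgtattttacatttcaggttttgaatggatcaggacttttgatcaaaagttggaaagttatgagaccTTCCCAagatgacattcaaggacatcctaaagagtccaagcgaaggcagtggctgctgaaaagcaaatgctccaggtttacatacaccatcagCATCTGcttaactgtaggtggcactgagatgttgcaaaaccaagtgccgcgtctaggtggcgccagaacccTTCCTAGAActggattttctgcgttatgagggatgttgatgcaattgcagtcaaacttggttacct

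It holds a CATCTG E-box, an Rbpj core and a Stat motif. Within 250 kb of its start site Prom1 had 1 peak, a fold of 0.772, and 4 of the 6 peaks in its full window were those in Ldb2. Tapt1 had 8 peaks within 500 kb and Ldb2 had 7, with adjusted p of 0.0869 and 0.197 (one-sided exact binomial test).

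Ptprz1 encodes a receptor tyrosine phosphatase whose extracellular part is a chondroitin sulfate proteoglycan and binds the growth factor pleiotrophin. The gene (ENSMUSG00000068748) occupies 22825502 to 23002916 of chromosome 6 on the plus strand and was the one member with peaks for which it was the nearest gene. Peak 5182, from 22872835 to 22873801, lay in an intron of Ptprz1, 47.8 kb downstream of the start site. Peaks 5181 (22774831 to 22775868) and 5180 (22743518 to 22745524) lay 50.2 and 81.0 kb upstream in intergenic sequence, with no other protein-coding start site between them and the gene. With 2007 bp, peak 5180 was wider than 95.7% of all peaks. The remaining peaks were farther out. Peaks 5178 and 5179 formed a pair 1.44 kb apart, 326.5 and 325.1 kb upstream, nearest to Fam3c. Peaks 5183 and 5184 lay 369.0 and 405.7 kb downstream, nearest to Fezf1, a forebrain zinc finger factor gene, at 3.77 and 33 kb. The peaks around the gene, from upstream to downstream, had these middles:

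Peak 5180, chr6:22744371-22744670: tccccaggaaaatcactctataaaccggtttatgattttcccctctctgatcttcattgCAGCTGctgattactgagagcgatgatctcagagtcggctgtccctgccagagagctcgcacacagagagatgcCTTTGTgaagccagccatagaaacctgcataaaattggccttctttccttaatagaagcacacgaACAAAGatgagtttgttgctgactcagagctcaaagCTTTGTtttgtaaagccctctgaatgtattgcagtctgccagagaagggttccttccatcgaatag

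Peak 5181, chr6:22775200-22775499: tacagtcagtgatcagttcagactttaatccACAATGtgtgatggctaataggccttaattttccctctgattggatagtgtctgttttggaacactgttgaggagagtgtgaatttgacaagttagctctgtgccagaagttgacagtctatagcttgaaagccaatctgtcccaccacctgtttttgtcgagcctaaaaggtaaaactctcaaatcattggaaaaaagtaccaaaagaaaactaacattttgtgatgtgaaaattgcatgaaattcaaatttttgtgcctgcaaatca

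Peak 5182, chr6:22873168-22873467: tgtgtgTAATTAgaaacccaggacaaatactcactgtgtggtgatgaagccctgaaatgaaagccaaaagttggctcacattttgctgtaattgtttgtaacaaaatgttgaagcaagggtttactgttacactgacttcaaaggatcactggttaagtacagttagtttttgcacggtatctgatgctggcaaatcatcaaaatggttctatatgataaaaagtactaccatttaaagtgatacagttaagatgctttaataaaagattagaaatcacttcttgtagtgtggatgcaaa

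The first holds a CAGCTG E-box and 3 matches to the Sox motif ACAAAG, the second a single ACAATG and the third a single TAATTA. The start site of Ptprz1 lay between peaks only 98.0 kb apart, a shorter stretch than at 98.0% of protein-coding genes. With regulatory domains in place of the fixed window (5 kb upstream to 1 kb downstream of the start site, extended by up to 1 Mb to the next such domain of a protein-coding gene), Ptprz1 had 5 peaks in 0.771 Mb, or 2.5 times the expected number, with p = 1 after adjustment (exact binomial test, one-sided). The domains of Fabp7, Slc1a3, Vim, Nes and Prom1, from 0.0497 to 0.514 Mb long, held 0 peaks each. The expected numbers there were small, at 0.405, 1.33, 0.606, 0.129 and 0.324 in the same order.

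The width of the 26 peaks was close to that of all peaks. Their median was 1095.5 bp (95% interval from order statistics 879 to 1293 bp), where the median of all peaks was 1017 bp, and 17 of the 26 were at least as wide as the latter. Their widths ran from 489 bp at Vim to 2841 bp at Nes. The median GC content was 45.0% (interval 41.2 to 49.8%), and the extremes were 28.2%, in peak 5179 upstream of Ptprz1, and 59.1%, in peak 3946 at Nes. Each of the 8 peaks at Nes had a higher GC content than every other peak of the set. Another peak lay less than 10 kb away for 9 of the 26 (34.6%), and for 20.9% of all peaks. Of these 9, 7 were at Nes, and the other genes had 2 of 18 (11.1%). These values are descriptions with no test. The intervals take the 26 peaks as independent, although 8 lay at Nes and 7 of those had another peak under 10 kb away.

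**Figure D4:**
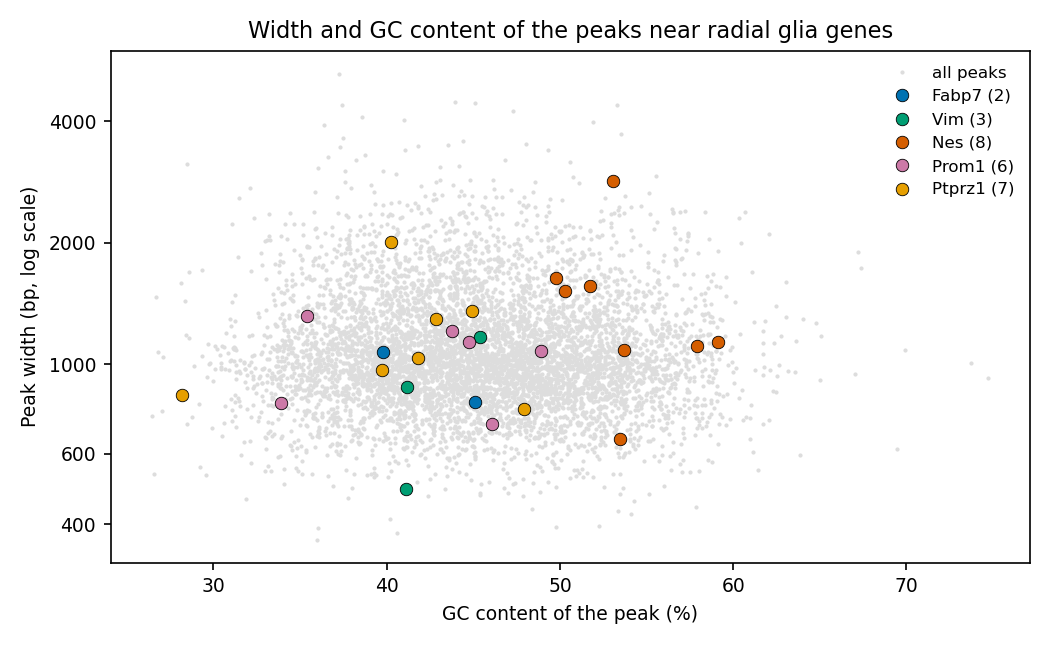
GC content (x axis, %) and width (y axis, bp, log scale) of the 26 peaks near radial glia marker genes (coloured points, number of peaks in brackets) and of all 6629 peaks (grey). The 8 peaks at Nes lie at 49.8 to 59.1% GC, to the right of the peaks of the other genes.

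For each of the 12 motifs, the share of all peaks that held it in the middle 300 bp lay inside the interval of the share among the 26 peaks, which was wide. These intervals too take the 26 peaks as independent. CAGCTG was found in 13 (50%, exact Clopper-Pearson 95% interval 29.9 to 70.1%), in 31.0% of all peaks and in 12.2% of regions of the same length 10 kb downstream of each peak. CATCTG was found in 11 (42.3%, interval 23.4 to 63.1%), in 45.7% of all peaks and in 22.7% of the downstream regions. For TAATTA the numbers were 7 (26.9%), 23.5% and 9.29%, and for the single Nfi site 10 (38.5%), 31.7% and 14.7%. The Nfi palindrome was found in 0 of the 26 and in 0.196% of all peaks. The Rbpj core, part of the Notch response that maintains radial glia, was found in 6 (23.1%), in 27.0% of all peaks and in 25.7% of downstream regions. Among the remaining motifs, ACAATG was found in 5, ACAAAG in 4, the Tead core in 5, and the POU octamer, the Stat motif and the Rfx motif in 3 each. In all peaks these last 6 motifs had shares of 18.1, 27.0, 17.0, 5.26, 8.95 and 13.4%, in the same order, and in the downstream regions 16.9, 25, 16.3, 2.11, 10.1 and 8.69%. By gene, the 7 peaks with TAATTA were 4 at Ptprz1 and 3 at Prom1, and none at Nes, Vim or Fabp7. The Rbpj core was found at Nes in 4 of 8 peaks and at Ptprz1 in 0 of 7. Of the 12 motifs, only TAATTA and the Rbpj core are given by gene here, and the numbers are small. Median GC content of the peaks was 53.2% at Nes and 41.8% at Ptprz1, and its bearing on these counts was not tested.

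Other genes of radial glia gave a wider range. Of 32 such genes, named from their known expression or role and with peaks of these data already known, 6 passed the test (18.8%, against 4.09% of all protein-coding genes), with a median of 3.5 peaks and a fold of 1.35. The 6 calls became 2 with close peaks joined, 1 with windows of 100 kb and 0 with regulatory domains between all genes. The highest folds were those of Msi2, an RNA binding protein of stem cells, with 15 peaks and a fold of 6.10 (adjusted p = 1.26e-05, one-sided exact binomial test), Sox2, a stem cell transcription factor, with 13 and a fold of 5.02, and Pax6, a homeodomain factor of the ventricular zone, with 12 and a fold of 4.63. Aldoc, Fam107a and Gas1 also passed, with 10, 10 and 9 peaks. Sox2 had a peak 9.63 kb from its start site, closer than any of the 6 marker genes. Among the genes that passed, the nearest peak lay at distances from 9.63 kb for Sox2 to 357.2 kb for Aldoc. Ednrb, Emx2 and Hopx did not pass and had nearer peaks than Sox2, at 6.48, 7.39 and 7.65 kb. Gfap, the filament gene of mature astrocytes, and Ttyh1 had 0 peaks. The list is not separate from the others: Bcan is among the 32 with the same 8 peaks as Nes, and Gfap and Slc1a2 are counted again among the paralogues.

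Paralogues of the 6 genes were counted in the same way, and 0 of the 24 passed the test, where 4.09% of all protein-coding genes did, with a median of 3 peaks. Among intermediate filament genes, Nes had 8 and Vim 3, while Des had 7, Nefh 4, Prph and Synm 3 each, Nefl and Nefm 2 each, and Gfap and Ina 0. Among fatty acid binding protein genes, Fabp7 had 2, Fabp3 had 8, Fabp4, Fabp5, Fabp6, Fabp9 and Fabp12 had 3 each, and Fabp1 and Fabp2 had 1 each. Fabp4, Fabp5, Fabp9 and Fabp12 lie close together on chromosome 3, and Nefl and Nefm on chromosome 14. Windows of such neighbours overlap, so their counts are not separate observations, also in the median and in the number that passed. In the glutamate and neutral amino acid transporter family, Slc1a1 had 7 peaks, Slc1a2, the other astrocyte glutamate transporter, had 3, Slc1a4, Slc1a5 and Slc1a7 had 2 each, and Slc1a6, like Slc1a3, had 0. Prom2 had 2 peaks and Ptprg, the receptor phosphatase most like Ptprz1, had 4.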

How the data were processed

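Immunoprecipitated p300 chromatin and input chromatin from 1 sample of E14.5 dorsal cerebral wall were sequenced. The authors aligned reads to mm9 with ELAND, kept unique alignments, and compared the p300 library with the input in MACS, whose version is 1.4 per the submitters' processing notes. Their list is limited to distal, non-exonic sites: the zone of 2.5 kb around start sites was cleared, and so were regions where mapping was in doubt. The list they deposited gives chromosome, start, end and number of 6629 peaks. The input library was not analysed here.

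Peaks were placed on NCBIM37, the same assembly as mm9 (lengths of the chromosomes checked), with GENCODE vM1, which holds 37273 genes on the chromosomes used. The transcript with the longest coding part gave each start site. Expected counts used the 2.56 Gb of assembled bases. Python 3.11.15, numpy 2.4.6, scipy 1.17.1 and matplotlib 3.10.9 were used, and the methods were tested on simulated data. The genes, lists and motifs were chosen with earlier results of these data known. Named were the 6 genes, the peak nearest each and those in gene bodies, the 3 called genes of highest fold per list, and genes whose start site was nearest to a peak. Named outside this rule, after their values were seen, were the remaining peaks, the other members of the lists and the genes sharing a window. Gene symbols of the lists not found in the annotation were matched through RefSeq identifiers. The alternatives changed the window, the peaks counted, the start site, the regulatory domain, the expectation and the sequence searched.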

Additional observations from a re-analysis of the deposited data

How the results depend on the processing

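Of 72 values for the 6 genes under 12 alternatives, 70 stayed on the same side of the threshold. The exceptions were Nes without the peaks narrower than the median (7 peaks) and Nes with the expectation from sequence outside exons and start sites (8 peaks), both then past it. The 70 count calls and not sizes: Nes and Prom1 had 0 peaks with 100 kb windows and are among them, as genes still not called. The share of protein-coding genes past the threshold, 4.09% as reported, was 2.08, 0.881 and 6.87% with windows of 250 kb, 100 kb and 1 Mb, 2.31% with close peaks joined, 2.05% with wide peaks, and 1.14 and 0.577% with regulatory domains between protein-coding and between all genes. The number of other radial glia genes past it fell from 6 to 1 with 100 kb windows, 2 with close peaks joined and 0 with domains between all genes, was 4 with the density of the own chromosome, and rose to 8 with the expectation from sequence outside exons and start sites. It was 5 or 6 under the others. Over all 12 motifs, a motif was present in 22.4% of combinations of motif and peak, where all peaks had 20.7%. With the middle 500 bp and the whole peak searched it was 28.8 and 43.9%, where all peaks had 29.1 and 45.5%, so the sign of the difference turned. The median GC content was 40.3% for the 3 peaks nearest to a member, all of them at Ptprz1, so this value describes 1 locus. The cause of these shifts was not tested, beyond the shorter or longer sequence and the fewer peaks counted. With 1 library and no score, no replicate error and no read depth stand behind any peak, and width was the one property by which the list could be narrowed. No paired analysis was possible because there was 1 p300 library and the input was not analysed here.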

Other observations

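Markers of the other cell types in or near the tissue were counted in the same window, where 4.09% of all protein-coding genes passed the test. Of 6 intermediate progenitor markers, 2 passed the test, Insm1 with 19 peaks (fold 7.33) and Neurog2 with 16 (fold 6.18), and the median of the list was 7 peaks. Of 10 neuron markers, 2 passed, Neurod6 with 13 peaks and Neurod2 with 10, with a median of 5.5. Of 7 markers of the ventral telencephalon and interneurons, which the dissected wall should hold in small numbers, 0 passed, with a median of 3 peaks. Of 12 markers of vascular, microglial, meningeal and blood cells, 1 passed, Cspg4 with 10 peaks, with a median of 2.5. These lists were made with earlier results of these data known, and no test compared one list with another.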
